A study of Homo sapiens with 16 samples.

Results

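The genes described here are those of the proteasome whose symbols start with PSMA, PSMB, PSMC or PSMD and end in a number. They were found by symbol among 60662 gene identifiers, and 39 genes matched: 8 PSMA, 11 PSMB, 6 PSMC and 14 PSMD genes. RNA-seq had been done in the human T cell line Jurkat E6-1, which the labels list as wild type and as lymphoma. One group of 8 libraries came from untreated cells at 0 h, and the other 8 came from cells moved into phosphate-buffered saline, given hydrogen peroxide at 10 µM and harvested 4 h later. The labels call the libraries biological replicates. Untreated cells kept in saline for 4 h were not analysed here, so peroxide, the change of medium and the elapsed time cannot be told apart in any difference below. Libraries 1 to 4 of each group belong to batch 1 and libraries 5 to 8 to batch 2 in the names of the deposited tables. The sources used here do not say what separates the batches.

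The proteasome is the protease that degrades proteins tagged with ubiquitin in the cytosol and nucleus. Its core particle is a barrel of PSMA (alpha) rings, which gate entry, around PSMB (beta) rings, which hold the cutting sites. A regulatory particle caps the barrel: a base with a ring of PSMC ATPases unfolds the substrate and threads it inwards, and a lid of PSMD subunits removes the ubiquitin chain. In immune cells PSMB8, PSMB9 and PSMB10 can take the places of PSMB5, PSMB6 and PSMB7, which makes the immunoproteasome, known for producing peptides for antigen presentation. PSMD symbols do not all name lid subunits. PSMD1, PSMD2 and PSMD4 belong to the base, and PSMD5, PSMD9 and PSMD10 are chaperones that help assemble the base and leave the finished particle, so the PSMD genes were split into lid (8 genes), base subunits other than ATPases (3) and assembly chaperones (3).

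The promoters of 5 members are printed because results below turn on these genes: PSMD3 and PSMD6 had the largest rises in the lid, PSMB4 the largest in the core, PSMC2 is an ATPase gene with little sequence shared with other genes, and PSMD5 was the one member that fell. Each is the RefSeq window from 250 bases before to 50 bases after the gene's start in GRCh38.p14, read 5′ to 3′ on the gene's strand. Capitals mark 2 motifs searched on both strands: TGACNNNGC, the core of the antioxidant response element bound by NFE2L1 and NFE2L2, and CCAAT, bound by NF-Y. The windows are chr17:39980557-39980856 (+) for PSMD3, chr3:64023445-64023744 (-) for PSMD6, chr1:151399323-151399622 (+) for PSMB4, chr7:103347393-103347692 (+) for PSMC2 and chr9:120842873-120843172 (-) for PSMD5.
PSMD3: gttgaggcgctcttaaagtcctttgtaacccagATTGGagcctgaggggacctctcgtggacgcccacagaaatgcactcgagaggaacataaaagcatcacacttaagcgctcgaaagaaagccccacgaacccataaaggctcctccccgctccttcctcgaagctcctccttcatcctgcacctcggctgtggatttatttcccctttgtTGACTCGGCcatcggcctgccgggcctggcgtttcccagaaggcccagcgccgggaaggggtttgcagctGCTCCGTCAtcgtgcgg
PSMD6: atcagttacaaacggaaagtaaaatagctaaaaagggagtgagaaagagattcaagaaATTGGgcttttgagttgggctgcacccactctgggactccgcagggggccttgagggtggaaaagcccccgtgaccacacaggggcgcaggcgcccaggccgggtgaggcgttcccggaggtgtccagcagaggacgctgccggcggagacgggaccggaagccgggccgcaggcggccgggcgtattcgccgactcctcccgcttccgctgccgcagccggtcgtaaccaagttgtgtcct
PSMB4: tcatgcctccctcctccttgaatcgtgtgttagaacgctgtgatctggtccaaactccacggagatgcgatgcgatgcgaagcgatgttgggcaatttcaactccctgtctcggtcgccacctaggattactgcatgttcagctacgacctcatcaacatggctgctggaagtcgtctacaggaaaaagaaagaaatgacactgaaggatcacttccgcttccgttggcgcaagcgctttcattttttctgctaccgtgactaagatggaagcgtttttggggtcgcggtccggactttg
PSMC2: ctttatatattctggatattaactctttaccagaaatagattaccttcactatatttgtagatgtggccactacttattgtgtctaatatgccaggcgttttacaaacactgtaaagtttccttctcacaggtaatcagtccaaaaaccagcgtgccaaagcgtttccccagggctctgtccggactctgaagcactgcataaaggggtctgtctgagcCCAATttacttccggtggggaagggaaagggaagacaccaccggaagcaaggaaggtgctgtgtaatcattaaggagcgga
PSMD5: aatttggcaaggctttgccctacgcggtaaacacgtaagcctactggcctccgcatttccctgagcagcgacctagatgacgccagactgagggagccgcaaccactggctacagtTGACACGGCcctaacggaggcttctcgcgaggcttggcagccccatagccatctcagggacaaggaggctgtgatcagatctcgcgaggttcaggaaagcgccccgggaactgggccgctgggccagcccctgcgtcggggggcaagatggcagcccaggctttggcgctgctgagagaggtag
The PSMD3 window held TGACNNNGC 2 times and CCAAT 1 time, that of PSMD5 held TGACNNNGC 1 time, those of PSMD6 and PSMC2 held CCAAT 1 time each, and that of PSMB4 held neither. The RefSeq table matched 34 of the 39 members, with 41 windows between them. TGACNNNGC was in 10 of these 41 windows (24.4%), against 13.3% of all 35116 windows of the same length. CCAAT was in 18 of them (43.9%), against 34.6% of all windows, and no match of this motif overlapped TGACNNNGC in the 5 windows shown. Among members with a window that rose after peroxide, 5 of 18 held TGACNNNGC, and among tested members that were not called, 4 of 14 did. For CCAAT these counts were 11 of 18 and 6 of 14. GAANNTTC, a form of the repeat in heat shock elements bound by HSF1, was in no member's window (6.77% of all windows), and TTCNNGAA, its other form, was in those of PSMB5, PSMD5 and PSMD6 (7.32% of the members' windows, 7.74% of all windows). A match describes letters in the window only.

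Levels are given as CPM, counts scaled to the size of the library in genes with TMM factors. The libraries held 5556553 to 15720881 reads in genes. All 10 T cell markers, such as CD3E, LCK and ZAP70, passed the filter on low counts, with a summed level of 2797 to 3797 CPM in controls and 2877 to 3763 CPM after peroxide. Of these 10, 3 (CD3G, CD2 and CD28) fell and 0 rose. Among all genes tested 24.3% were lower and 24.1% higher, so the falls were near the background. Of 6 B cell markers 1 was tested, and their sum was 29.9 to 50.5 CPM in controls and 31.5 to 55.8 CPM after peroxide. Of 6 myeloid markers 2, CD14 and ITGAM, were tested and both rose, beside 24.1% of all genes tested. The summed level of the 6 was 0.5005 to 1.26 CPM in controls and 4.78 to 16.5 CPM after peroxide, with LYZ and CSF1R under 50 reads. Of 4 erythroid markers 0 passed the filter on low counts, and HBB had 0 reads. Reads that did not align uniquely made up 34.1% ± 5.43 of counted reads in control libraries and 38.3% ± 4.33 in treated ones (SD, n = 8 each). In batch 1 this share was 35.3% ± 7.98 in controls and 35.9% ± 2.83 in treated libraries (SD, n = 4 each). In batch 2 it was 32.8% ± 0.94 and 40.8% ± 4.46, so the groups differed mainly in batch 2. The part of this share in the results below, and that of the myeloid marker genes, was not tested. Without the 2 libraries with the highest share, control 1 and peroxide 5, the same 20 members described next were called higher.

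More proteasome genes rose than fell after peroxide in saline, each by a small amount. Of 38 members tested, 20 were higher, 1 (PSMD5) was lower and 17 were not called by edgeR's quasi-likelihood test with Benjamini-Hochberg adjustment over all 14092 genes tested, at an adjusted p under 0.05. This is 52.6% of members higher and 2.63% lower, beside which 24.1% of all genes tested were higher and 24.3% lower. Nearly all members were abundant, and among the 9822 genes averaging at least 10 CPM the background was 22.4% higher and 28.2% lower. The rises ran from 0.19 to 0.81 on the log2 scale (1.14-fold to 1.76-fold) and 0 reached 2-fold. The median log2 fold change was 0.19 over members and -0.01 over all genes tested. Members together took 0.572% ± 0.0814 of reads in genes in control libraries and 0.632% ± 0.0677 in treated libraries (SD, n = 8 each). In these bulk libraries, fewer cells of a type and less RNA per cell cannot be told apart. Scaled by total counts and not by TMM factors, which moved the median of all genes by -0.06, the counts gave 17 members higher and 1 lower beside 19.9% of all genes higher and 31.3% lower. In a fit with no batch term 11 members were higher and 1 lower (18% and 17.4% of all genes tested).

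**Figure D1:**
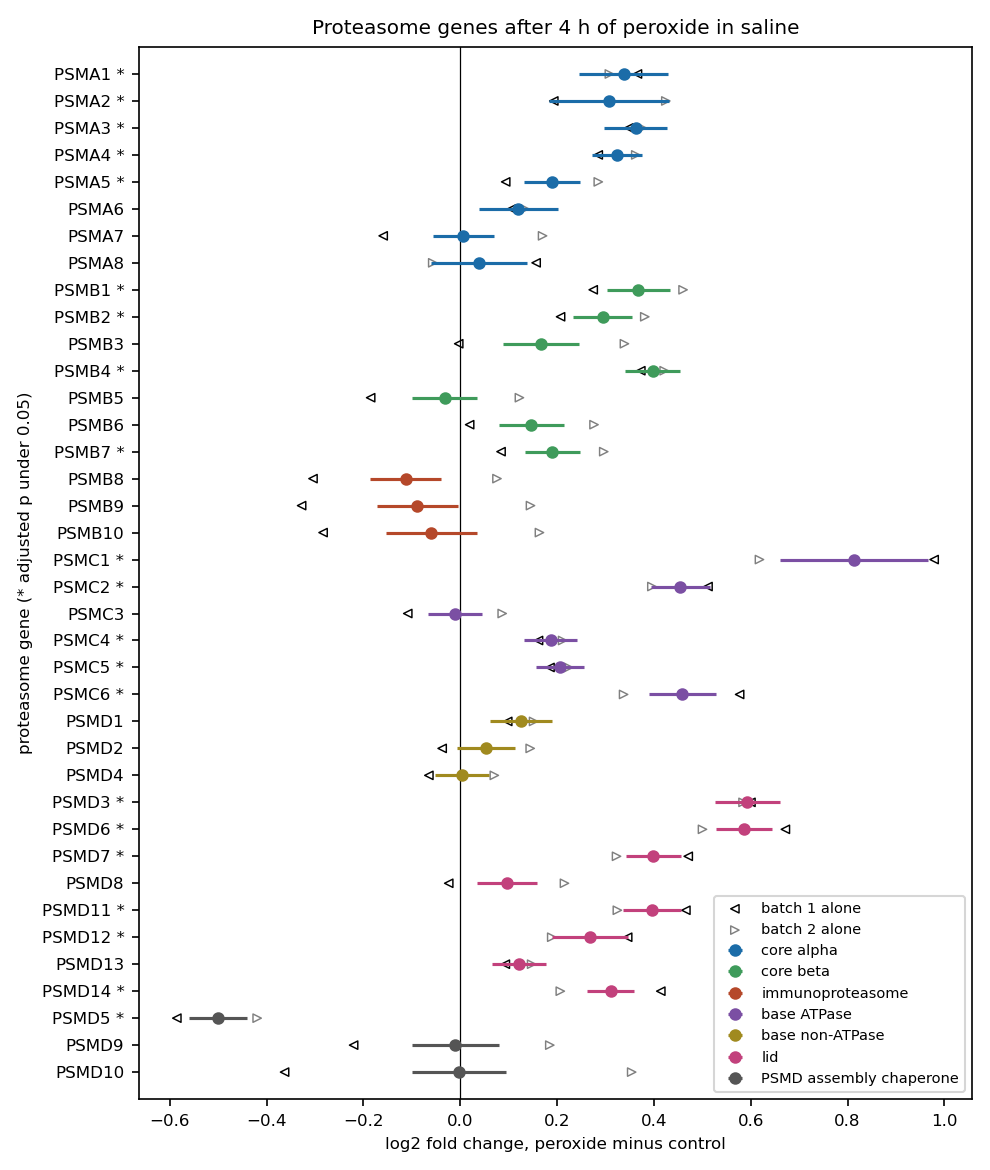
Log2 fold change (peroxide minus control) of the 38 tested proteasome genes with its standard error, coloured by the part of the particle; triangles give the fit in batch 1 alone and batch 2 alone, and asterisks mark an adjusted p under 0.05. Most lid and ATPase genes lie right of 0, the 3 immunoproteasome genes lie just left of 0, from -0.11 to -0.06, and PSMD5 stands apart at -0.50.

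Lid genes rose in 6 of 8 cases (75%, beside 24.1% of all genes tested), with a median log2 fold change of 0.35. PSMD3 (ENSG00000108344.15), a scaffold subunit, had a lowest, median and highest level of 122, 158 and 218 CPM in controls and 176, 266 and 321 CPM after peroxide. Its log2 fold change was 0.59 ± 0.07 (SE; edgeR adjusted p = 3.09e-07). The ranges overlapped over all 16 libraries, but within each batch every treated library lay above every control, as in 10.5% of all genes tested. PSMD6 (ENSG00000163636.10), another scaffold subunit, went from 113, 132 and 162 CPM to 160.1, 198 and 250.1 CPM, a log2 fold change of 0.59 ± 0.06 (edgeR adjusted p = 3.56e-08). Here the highest control lay just above the lowest treated library, and the groups were apart within each batch. The antisense gene PSMD6-AS2 next to it went from 3.56 ± 0.69 to 14.96 ± 2.50 CPM (SD, n = 8 each). Every treated library was above every control, as in 6.76% of all genes tested.

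PSMD14 (ENSG00000115233.12), the enzyme of the lid that cuts the ubiquitin chain off the substrate, varied least among controls of the lid genes. Controls had a lowest, median and highest level of 145, 154 and 163 CPM and treated libraries of 167, 190.5 and 216 CPM. It was the one member whose 8 treated libraries all lay above all 8 controls, which 6.76% of all genes tested did, and its log2 fold change was 0.31 ± 0.05 (edgeR adjusted p = 1.88e-05). PSMD7, the structural partner of PSMD14, rose by 0.40 ± 0.06, and the scaffold subunits PSMD11 and PSMD12 rose by 0.40 ± 0.06 and 0.27 ± 0.08. PSMD8 and PSMD13 were not called, at 0.10 ± 0.06 and 0.12 ± 0.06. In GENCODE 29, 50.4% of the exon bases of PSMD7 lie opposite another gene, so part of its reads cannot be assigned where the strand setting is unknown.

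**Figure D2:**
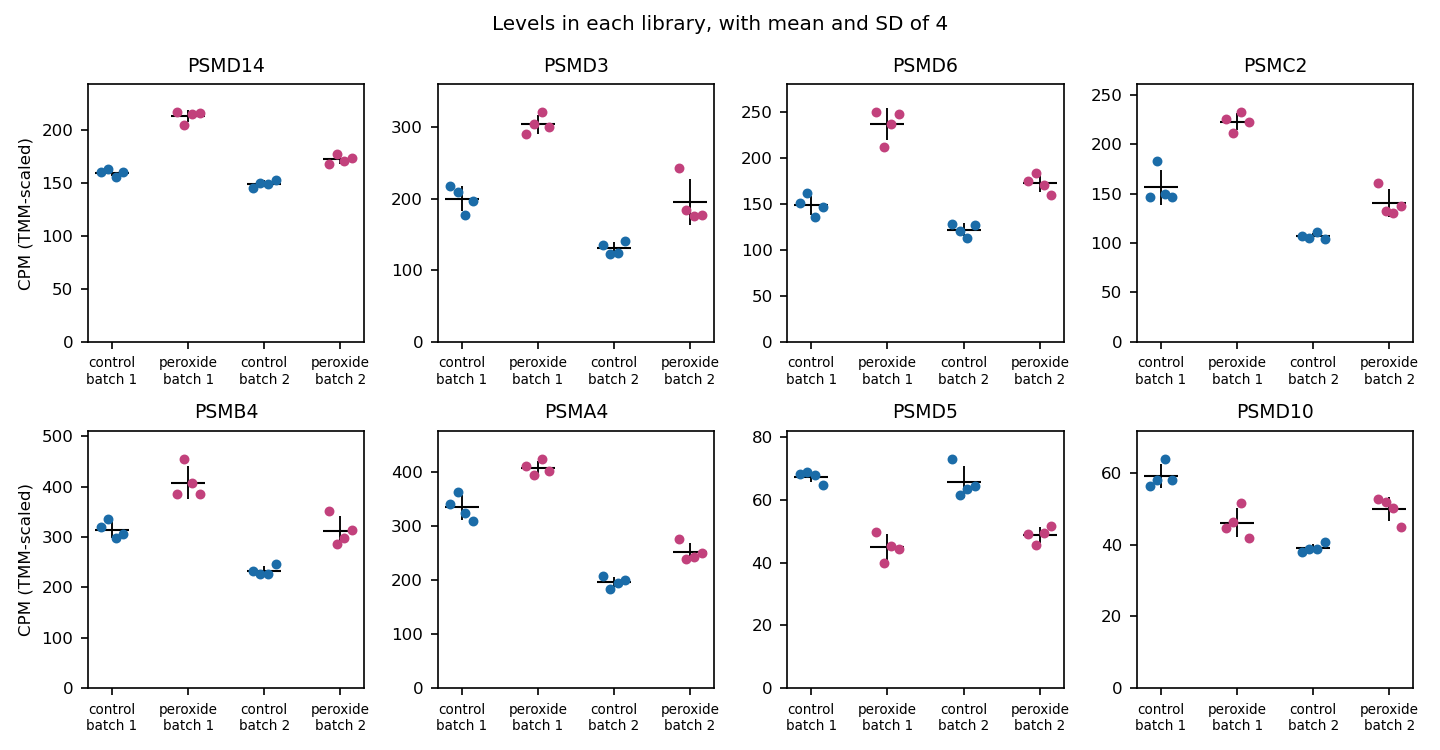
Level in CPM (TMM-scaled, axes from 0) of 8 proteasome genes in each library, by group and batch; bars give the mean and SD of 4 libraries. For PSMD14 the lowest treated library (167 CPM) is above the highest control (163 CPM), PSMD5 is lower after peroxide in both batches, and PSMD10 is lower in batch 1 and higher in batch 2.

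Among the members that belong to the base, calls were found for ATPases and not for the other subunits, a difference that was not itself tested. ADRM1, a base subunit that is no ATPase and whose symbol lies outside the family, rose and is described below. Of 6 ATPase genes 5 were higher (83.3%, beside 24.1% of all genes tested), with a median log2 fold change of 0.33. Of the 3 other base members 0 were called, beside 24.1% of all genes tested higher and 24.3% lower. PSMC2 (ENSG00000161057.12) went from a lowest, median and highest level of 104, 129 and 183 CPM to 130, 186 and 233 CPM, a log2 fold change of 0.45 ± 0.06 (edgeR adjusted p = 2.27e-06). PSMC6 (ENSG00000100519.12) went from 38.8, 48.2 and 58.0 CPM to 49.8, 64.6 and 95.9 CPM, a log2 fold change of 0.46 ± 0.07 (edgeR adjusted p = 1.24e-05). For both, treated libraries lay above controls within each batch and the ranges overlapped across batches. PSMC4 rose by 0.19 ± 0.05 and PSMC5 by 0.21 ± 0.05, and PSMC3 was at -0.01 ± 0.06.

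PSMC1 (ENSG00000100764.14) had the largest fitted rise of all members, on the lowest level. It went from 1.96, 3.90 and 5.07 CPM to 2.89, 6.64 and 10.1 CPM, a log2 fold change of 0.81 ± 0.15 (edgeR adjusted p = 0.000154), and its ranges overlapped in batch 2. Its level is uncertain: 13 pseudogenes carry its name, 29.03% of its 50-base stretches occur in other genes and 82.1% of its exon bases lie opposite NRDE2 in GENCODE 29. In all, 10 members share over 20% of their sequence or exon bases with another gene (PSMA1, PSMA2, PSMA6, PSMB10, PSMC1, PSMC5, PSMC6, PSMD4, PSMD7 and PSMD9). Without these 10, 14 of 28 tested members (50%) were higher and 1 (3.57%) was lower, beside the 24.1% and 24.3% of all genes tested.

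The 3 members that are base subunits without ATPase activity had no call. PSMD1 and PSMD2, the large scaffold proteins of the base, had log2 fold changes of 0.12 ± 0.06 and 0.05 ± 0.06, and PSMD4, a ubiquitin receptor, of 0.00 ± 0.06. None of the 3 had an unadjusted p under 0.05 (edgeR), and DESeq2 and limma-voom called 0 each. Control 2 decided the nearest of them: without this library PSMD1 was at 0.16 and was called (edgeR adjusted p = 0.0298). ADRM1 and SEM1, a ubiquitin receptor of the base and a small lid subunit whose symbols lie outside the family, both rose. ADRM1 went from 98.5, 118 and 125 CPM to 146, 174 and 186 CPM, a log2 fold change of 0.54 ± 0.06 (edgeR adjusted p = 3.76e-07). Its treated libraries all lay above all controls, as in 6.76% of all genes tested. SEM1 rose by 0.41 ± 0.09 (edgeR adjusted p = 0.000417).

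In the alpha rings of the core 5 of 8 genes were higher (62.5%, beside 24.1% of all genes tested). The median log2 fold change of the 8 was 0.25. PSMA3 (ENSG00000100567.13) went from a lowest, median and highest level of 109.6, 176 and 246 CPM to 147, 228 and 308 CPM, a log2 fold change of 0.36 ± 0.06 (edgeR adjusted p = 9.18e-05). PSMA1 (ENSG00000129084.17) went from 43.2, 52.0 and 69.3 CPM to 56.6, 68.1 and 92.8 CPM, a log2 fold change of 0.34 ± 0.09 (edgeR adjusted p = 0.00455). For PSMA3 treated libraries lay above controls in each batch, as in 10.5% of all genes tested, and for PSMA1 the groups overlapped in batch 1. PSMA4, PSMA2 and PSMA5 rose by 0.32 ± 0.05, 0.31 ± 0.12 and 0.19 ± 0.06. PSMA2 had an adjusted p of 0.0452 (edgeR) and lost its call in 11 of the 16 fits that each left out 1 library (edgeR adjusted p 0.0141 to 0.102 over these fits). With total counts in place of TMM, PSMA2 and PSMA5 lost their call, which left 3 alpha genes. PSMA6 and PSMA7 were at 0.12 ± 0.08 and 0.01 ± 0.06. PSMA7 was at -0.16 ± 0.08 in batch 1 and 0.17 ± 0.07 in batch 2, not called in either (edgeR adjusted p = 0.127 and 0.0715). PSMA8, a paralogue of PSMA7 known from the testis, was at 0.04 ± 0.10 on a level of 16.4 ± 5.66 CPM in controls (SD, n = 8).

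In the beta rings 4 of the 7 constitutive genes were higher (57.1%, beside 24.1% of all genes tested). The median log2 fold change of the 7 was 0.19. PSMB4 (ENSG00000159377.11), a structural subunit, went from a lowest, median and highest level of 227, 272 and 336 CPM to 286, 369 and 456 CPM, a log2 fold change of 0.40 ± 0.06 (edgeR adjusted p = 5.41e-06). PSMB1 (ENSG00000008018.9), another structural subunit, went from 137, 191 and 306 CPM to 184, 259.5 and 321 CPM, a log2 fold change of 0.37 ± 0.06 (edgeR adjusted p = 7.75e-05). In PSMB4 the treated libraries were above the controls within each batch, as in 10.5% of all genes tested, and in PSMB1 the groups overlapped in batch 1. PSMB2 rose by 0.29 ± 0.06, and PSMB3 was at 0.17 ± 0.08 and not called. Of the 3 catalytic subunits, PSMB7, with trypsin-like activity, rose by 0.19 ± 0.06 (edgeR adjusted p = 0.00842). PSMB7 lost its call with total counts, with no filter and without a batch term (edgeR adjusted p = 0.0599, 0.136 and 0.304). It was at 0.08 in batch 1 alone and 0.30 in batch 2 alone (edgeR adjusted p = 0.478 and 0.00141). PSMB6, with caspase-like activity, was at 0.15 ± 0.07 (edgeR adjusted p = 0.0754), and PSMB5, with chymotrypsin-like activity, was at -0.03 ± 0.07 (edgeR adjusted p = 0.727).

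The 3 immunoproteasome genes had no call in the 16 libraries, beside 24.1% of all genes tested higher and 24.3% lower. PSMB8 (ENSG00000204264.11) went from a lowest, median and highest level of 127, 154 and 169 CPM to 113, 142 and 152 CPM, a log2 fold change of -0.11 (95% confidence interval -0.26 to 0.04; edgeR adjusted p = 0.214). PSMB9 (ENSG00000240065.8) went from 52.2, 71.5 and 79.2 CPM to 54.3, 63.2 and 71.6 CPM, a log2 fold change of -0.09 (-0.26 to 0.09; edgeR adjusted p = 0.404). PSMB10 (ENSG00000205220.12) went from 22.9, 29.03 and 41.8 CPM to 23.9, 27.7 and 34.7 CPM, a log2 fold change of -0.06 (-0.25 to 0.14; edgeR adjusted p = 0.631). Over all 16 libraries the groups overlapped widely in all 3. Neither an unadjusted p under 0.05 (edgeR) nor DESeq2 nor limma-voom called any of them there (0 each). In batch 1 alone PSMB8 and PSMB9 were called lower, at -0.30 and -0.33 (edgeR adjusted p = 0.0178 and 0.0134). PSMB11, the beta subunit of the thymus, had 1 read in all controls and 3 reads in all treated libraries and was not tested.

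Each immunoproteasome gene was also set against the constitutive gene whose place it can take, as a log2 ratio of reads within each library. PSMB10/PSMB7 was -2.94 ± 0.09 in control libraries and -3.19 ± 0.18 in treated ones (SD, n = 8 each), a difference of -0.25 (two-sided exact permutation test, p = 0.00497, and 0.0149 after Benjamini-Hochberg adjustment over the 3 pairs). PSMB9/PSMB6 was -0.70 ± 0.29 and -0.93 ± 0.37, a difference of -0.23 (exact permutation p = 0.183, adjusted 0.275). PSMB8/PSMB5 was 0.45 ± 0.24 and 0.37 ± 0.32, a difference of -0.08 (exact permutation p = 0.570, adjusted 0.570). The level of PSMB10 relative to PSMB7 fell, and the other pairs did not pass this test, which ignores the batch. The ratio PSMB9/PSMB6 differed between batches, at -0.93 ± 0.17 in batch 1 and -0.47 ± 0.15 in batch 2 of the controls (SD, n = 4 each). In an exact permutation of the labels within batches, added after seeing the data, PSMB9/PSMB6 passed (p = 0.00571, adjusted 0.00857), as did PSMB10/PSMB7 (p = 0.00122, adjusted 0.00367), and PSMB8/PSMB5 did not (p = 0.272, adjusted 0.272). In batch 1 alone PSMB10/PSMB7 differed by -0.37 and PSMB9/PSMB6 by -0.34 (exact permutation p = 0.0286 for both, which 4 libraries against 4 cannot go below, adjusted 0.0429). In batch 2 alone PSMB10/PSMB7 differed by -0.13 (exact permutation p = 0.0857, adjusted 0.257) and PSMB9/PSMB6 by -0.12 (exact permutation p = 0.200, adjusted 0.300). In GENCODE 29, 45.3% of the exon bases of PSMB10 are also those of another gene on its strand, where reads may go uncounted.

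**Figure D3:**
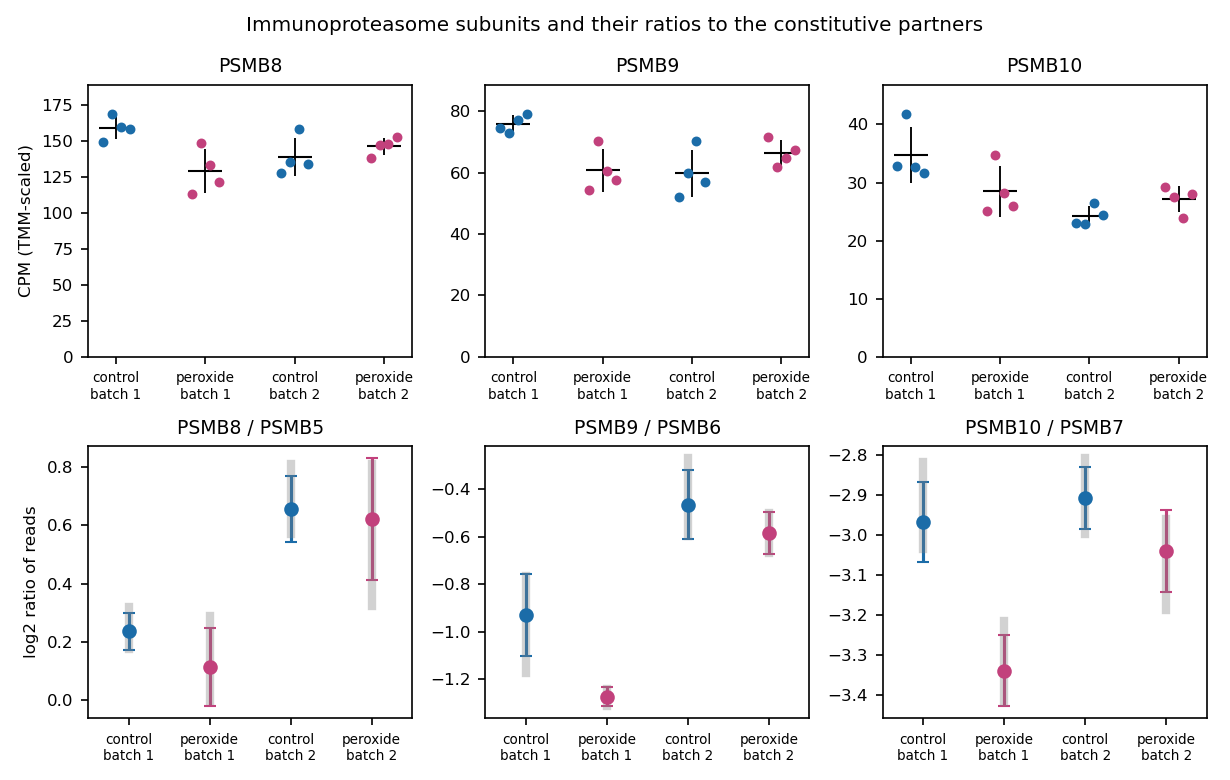
Top: level in CPM (TMM-scaled, axes from 0) of PSMB8, PSMB9 and PSMB10 in each library by group and batch, with mean and SD of 4. Bottom: log2 ratio of reads to the constitutive partner, mean and SD of 4 libraries with the range as a grey bar, on axes that differ between panels and do not start at 0. PSMB8 and PSMB9 are lower after peroxide in batch 1 (158.9 to 128.9 CPM and 75.9 to 60.7 CPM) and not in batch 2, and PSMB10/PSMB7 is at its lowest in treated libraries of batch 1.

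Set per kilobase of the GENCODE 29 transcript, the level of PSMB8 in controls (132 CPM per kb) was above that of PSMB5 (86.0), PSMB9 (86.8) was below PSMB6 (133), and PSMB10 (24.2) was well below PSMB7 (231). Over all tested members this length-scaled control level ran from 0.832 CPM per kb for PSMC1 to 327 for PSMA7. PSMB4 followed PSMA7 at 284, and PSMD9, PSMA2 and PSMA8 followed PSMC1 at 5.94, 6.44 and 9.11. PSMA2 and PSMA8 therefore stood far below the other alpha genes, which ran from 36.6 for PSMA1 upwards. In GENCODE 29, 52.5% of the exon bases of PSMA2 are also those of another gene on its strand, so its level is uncertain.

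Of the 3 assembly chaperones of the base 1 fell and 0 rose, beside 24.3% and 24.1% of all genes tested. PSMD5 (ENSG00000095261.14), which holds PSMC2 and PSMC1 during assembly, was the only one of the 38 members called lower. Its lowest, median and highest level was 61.5, 66.3 and 73.1 CPM in controls and 39.9, 47.2 and 51.6 CPM after peroxide, a log2 fold change of -0.50 ± 0.06 (edgeR adjusted p = 5.80e-07). All 8 treated libraries lay below all 8 controls, which was true of 4.49% of all genes tested. PSMD9, which holds PSMC6 and PSMC3, was at -0.01 ± 0.09. PSMD10 (gankyrin; ENSG00000101843.19), which holds PSMC4 and PSMC5, was at -0.00 ± 0.10 over all 16 libraries, and this value joined opposite changes in the 2 batches. In batch 1 it went from 59.0 ± 3.35 to 46.04 ± 4.05 CPM (SD, n = 4 each; log2 fold change -0.36 ± 0.09, edgeR adjusted p = 0.00696). In batch 2 it went from 39.0 ± 1.13 to 49.9 ± 3.45 CPM (0.35 ± 0.07, edgeR adjusted p = 0.00208). The treated libraries lay below all controls of batch 1 and above all controls of batch 2. The share of all genes tested whose groups were apart within a single batch was not counted.

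The batches gave different counts of changed members. In batch 1 alone 13 members were higher and 4 lower (20.4% and 17.2% of all genes tested), and in batch 2 alone 22 were higher and 1 lower (19.4% and 19.1%). The 4 lower in batch 1 were PSMB8, PSMB9, PSMD5 and PSMD10. All 13 members higher in batch 1 and 18 of those higher in batch 2 were among the 20 higher over both. In both batches at once, the treated libraries lay above all controls of their batch for 11 members (10.5% of all genes tested) and below for 1, PSMD5 (8.74%). Of the 11, 5 are lid genes (PSMD3, PSMD6, PSMD7, PSMD11 and PSMD14), 2 are ATPases (PSMC2 and PSMC6) and 4 are core genes (PSMA3, PSMA4, PSMB2 and PSMB4).

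The difference between the batches in the fold change was tested as an interaction and was called for 2 members, both with the higher value in batch 2 (1.87% of all genes tested were higher in batch 2 and 3.02% lower). For PSMD10 the fold changes differed by 0.71 ± 0.11 (edgeR adjusted p = 0.00112), and the call held in all 16 fits that each left out 1 library. For PSMB9 they differed by 0.47 ± 0.13 (edgeR adjusted p = 0.0417), from -0.33 ± 0.09 in batch 1 to 0.15 ± 0.09 in batch 2. This call was lost in 11 of the 16 fits that left out 1 library (edgeR adjusted p 0.0101 to 0.0960 over these fits). PSMB8 fell by 0.30 on the log2 scale in batch 1 (edgeR adjusted p = 0.0178) and was at 0.08 in batch 2. The difference of 0.38 ± 0.12 was not called (edgeR adjusted p = 0.0704). For PSMA7 the fold changes differed by 0.33 ± 0.10, which was not called (edgeR adjusted p = 0.0659). DESeq2 called the interaction for PSMA7, PSMB8, PSMB9 and PSMD10, and its share of all genes called was not counted.

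Batch also set the level of most members before any treatment. In untreated cells 30 of 38 members were lower in batch 2 than in batch 1 and 1 was higher, where 20.5% of all genes tested were lower and 22.1% higher (edgeR, Benjamini-Hochberg adjustment). The median difference was -0.48 on the log2 scale over members and 0.01 over all genes, larger in size than the median change after peroxide. PSMD1 differed most, from 263 ± 30.8 CPM in batch 1 to 140 ± 6.06 CPM in batch 2 (SD, n = 4 each), a log2 difference of -0.91 ± 0.09 (edgeR adjusted p = 1.63e-07). PSMB2 went from 338 ± 27.0 to 183 ± 15.1 CPM, a difference of -0.88 ± 0.08 (edgeR adjusted p = 6.39e-08). PSMA8 was the exception, from 11.4 ± 2.24 to 21.5 ± 1.39 CPM, a difference of 0.88 ± 0.14 (edgeR adjusted p = 3.76e-05). The 7 members with no call here were PSMA1, PSMB8, PSMD4, PSMD5, PSMD8, PSMD9 and PSMD14, which include both members whose treated and control libraries did not overlap at all, PSMD14 (-0.10 ± 0.06) and PSMD5 (-0.04 ± 0.08). Summed over all members, controls stood at 6624 ± 409 CPM in batch 1 and 4699 ± 100.1 CPM in batch 2, and treated libraries at 7427 ± 169 and 5614 ± 296 CPM.

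**Figure D4:**
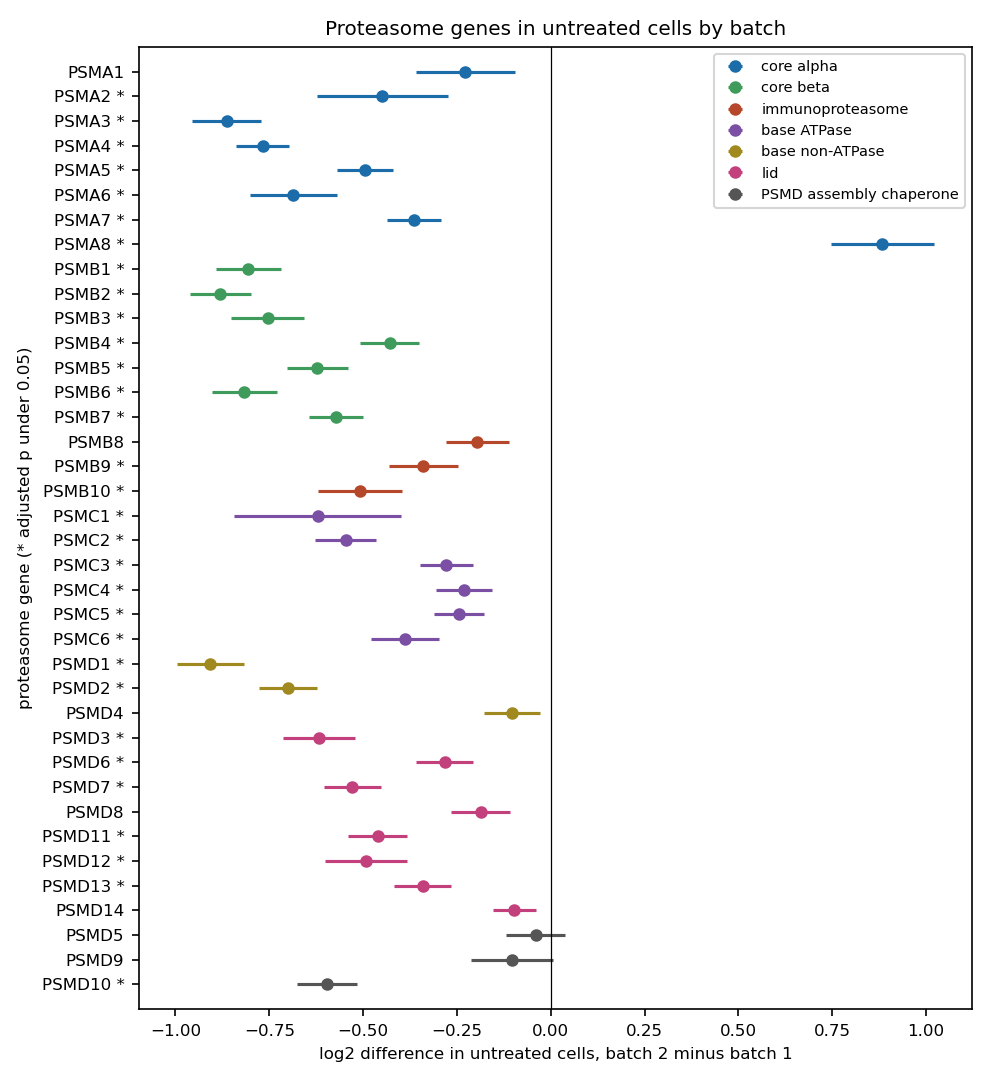
Log2 difference between batch 2 and batch 1 in untreated cells for the 38 tested proteasome genes, with its standard error; colours give the part of the particle and asterisks an adjusted p under 0.05. All members but PSMA8 (0.88) lie left of 0, down to -0.91 for PSMD1, and PSMD5, PSMD14 and PSMD4 lie near 0.

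Genes that build, cap, feed or control the proteasome gave a mixed picture. Over 44 such genes, all tested, 17 (38.6%) were higher and 10 (22.7%) lower beside the 24.1% and 24.3% of all genes tested, so the falls were near the background. The median log2 fold change was 0.06. When libraries were scaled by total counts, 13 were higher and 12 lower beside 19.9% and 31.3% of all genes. Among 6 other assembly genes 2 rose and 3 fell. POMP, which completes the core and is degraded inside it, rose by 0.36 ± 0.07 and PSMG2 by 0.19 ± 0.06. POMP lost its call without a batch term and in batch 1 alone (edgeR adjusted p = 0.163 and 0.0742). PSMG2 lost its call with total counts and with no filter (edgeR adjusted p = 0.0842 and 0.217). It was not called in batch 1 or batch 2 alone (edgeR adjusted p = 0.107 and 0.0675). The chaperones PSMG3 and PSMG4 fell by 0.36 and 0.54 on the log2 scale, from 72.0 ± 8.79 to 56.8 ± 13.9 CPM and from 42.0 ± 5.24 to 28.6 ± 4.31 CPM (SD, n = 8 each). In batch 1 alone PSMG3 and PSMG4 were at -0.51 and -0.80. In batch 2 alone they were at -0.22 and -0.29 and not called (edgeR adjusted p = 0.141 and 0.0591). PAAF1, which binds free ATPases, fell by 0.21 (edgeR adjusted p = 0.0327) and lost its call in 6 of the 16 fits that left out 1 library. PSMG1 was at 0.12 ± 0.06 and not called.

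Of the alternative caps and the inhibitor of the core, 1 of 5 rose and 1 fell. These are 20% each, near the 24.1% and 24.3% of all genes tested. PSME2, a subunit of the cap linked to interferon, rose by 0.20 ± 0.07 (edgeR adjusted p = 0.0155) and lost its call without control 1 (edgeR adjusted p = 0.0551). PSME3, the nuclear cap, fell by 0.25 on the log2 scale (edgeR adjusted p = 0.00486). Its log2 fold change was -0.44 in batch 1 and -0.07 in batch 2 (edgeR adjusted p = 0.00118 and 0.489). Without a batch term PSME3 lost its call. PSME1, PSME4 and PSMF1 were at 0.15 ± 0.07, -0.02 ± 0.07 and 0.04 ± 0.06.

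NFE2L1 is the transcription factor known to raise proteasome genes when the proteasome is impaired. It starts in the membrane of the endoplasmic reticulum, where the ligase SYVN1 marks it and VCP pulls it out, and it becomes active after NGLY1 removes its sugars and the protease DDI2 cuts it. All 7 genes of this list were called, with 5 higher and 2 lower. Of all genes tested 24.1% were higher and 24.3% lower. NFE2L1 went from a lowest, median and highest level of 248, 287 and 335 CPM to 164, 194 and 260.2 CPM, a log2 fold change of -0.52 ± 0.06 (edgeR adjusted p = 2.68e-07). DDI2 went from 125, 141 and 151 CPM to 80.8, 87.8 and 101.1 CPM, a log2 fold change of -0.63 ± 0.06 (edgeR adjusted p = 1.73e-08). For DDI2 all treated libraries lay below all controls, as in 4.49% of all genes tested. For NFE2L1 the highest treated library lay above the lowest control. SYVN1, VCP and NGLY1 rose by 0.46 ± 0.08, 0.29 ± 0.09 and 0.18 ± 0.06. VCP was at 0.08 in batch 1 and 0.50 in batch 2 (edgeR adjusted p = 0.431 and 0.00450), and lost its call without a batch term. NGLY1 was at 0.06 in batch 2 (edgeR adjusted p = 0.462), and lost its call with total counts and with no filter. The related factor NFE2L2 rose by 0.56 ± 0.08 and its repressor KEAP1 by 0.29 ± 0.07. KEAP1 was at 0.12 in batch 1 alone and not called there (edgeR adjusted p = 0.307). These are transcript levels, and the protein or cleavage of NFE2L1 was not measured.

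Among 13 enzymes and shuttles that bind the proteasome 4 rose (30.8%) and 2 fell (15.4%), shares not far from the 24.1% and 24.3% of all genes tested. ZFAND5, a zinc finger protein that stimulates the proteasome, went from 80.6, 94.3 and 130.5 CPM to 198, 253 and 341 CPM, a log2 fold change of 1.40 ± 0.09 (edgeR adjusted p = 2.39e-11). Its treated libraries all lay above all controls, as in 6.76% of all genes tested. TXNL1, a thioredoxin-like protein of the regulatory particle, rose by 0.48 ± 0.07. The other rises were ZFAND2A (0.73 ± 0.11) and USP14 (0.20 ± 0.07), and the falls were DDI2 and UBE3C (-0.24 ± 0.06); ZFAND2A, USP14 and UBE3C are named after their values were seen. USP14, a deubiquitinase, lost its call in 5 of the 16 fits that left out 1 library. UBE3C was at -0.15 in batch 2 alone and not called there (edgeR adjusted p = 0.0882).

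Of 4 genes for ubiquitin and its activation 2 rose (50%, beside 24.1% of all genes tested). UBB, which encodes a chain of ubiquitin repeats, went from 248 ± 32.5 to 319 ± 51.5 CPM in batch 1 and from 65.97 ± 9.05 to 146 ± 35.04 CPM in batch 2 (SD, n = 4 each), a log2 fold change of 0.75 ± 0.13 over both (edgeR adjusted p = 9.33e-05). RPS27A, which encodes ubiquitin fused to a ribosomal protein, rose by 0.29 ± 0.08. The activating enzymes UBA1 and UBA6 were not called, at 0.01 ± 0.06 and -0.13 ± 0.08.

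Of 8 genes that handle immunoproteasome products or control its genes 1 rose and 3 fell. These are 12.5% and 37.5%, beside 24.1% and 24.3% of all genes tested. B2M, the light chain of MHC class I, went from 458, 580.4 and 763 CPM to 668, 903 and 1129 CPM, a log2 fold change of 0.59 ± 0.05 (edgeR adjusted p = 3.47e-09). The peptide-trimming enzymes ERAP1 and ERAP2 fell by 0.36 and 0.29 on the log2 scale and the peptide transporter subunit TAP1 by 0.26, the last named after its values were seen. TAP1 was at -0.15 in batch 2 alone and not called there (edgeR adjusted p = 0.202). IRF1 and NLRC5, known activators of PSMB9 or MHC class I genes, were not called, nor were TAP2 and TAPBP.

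**Figure D5:**
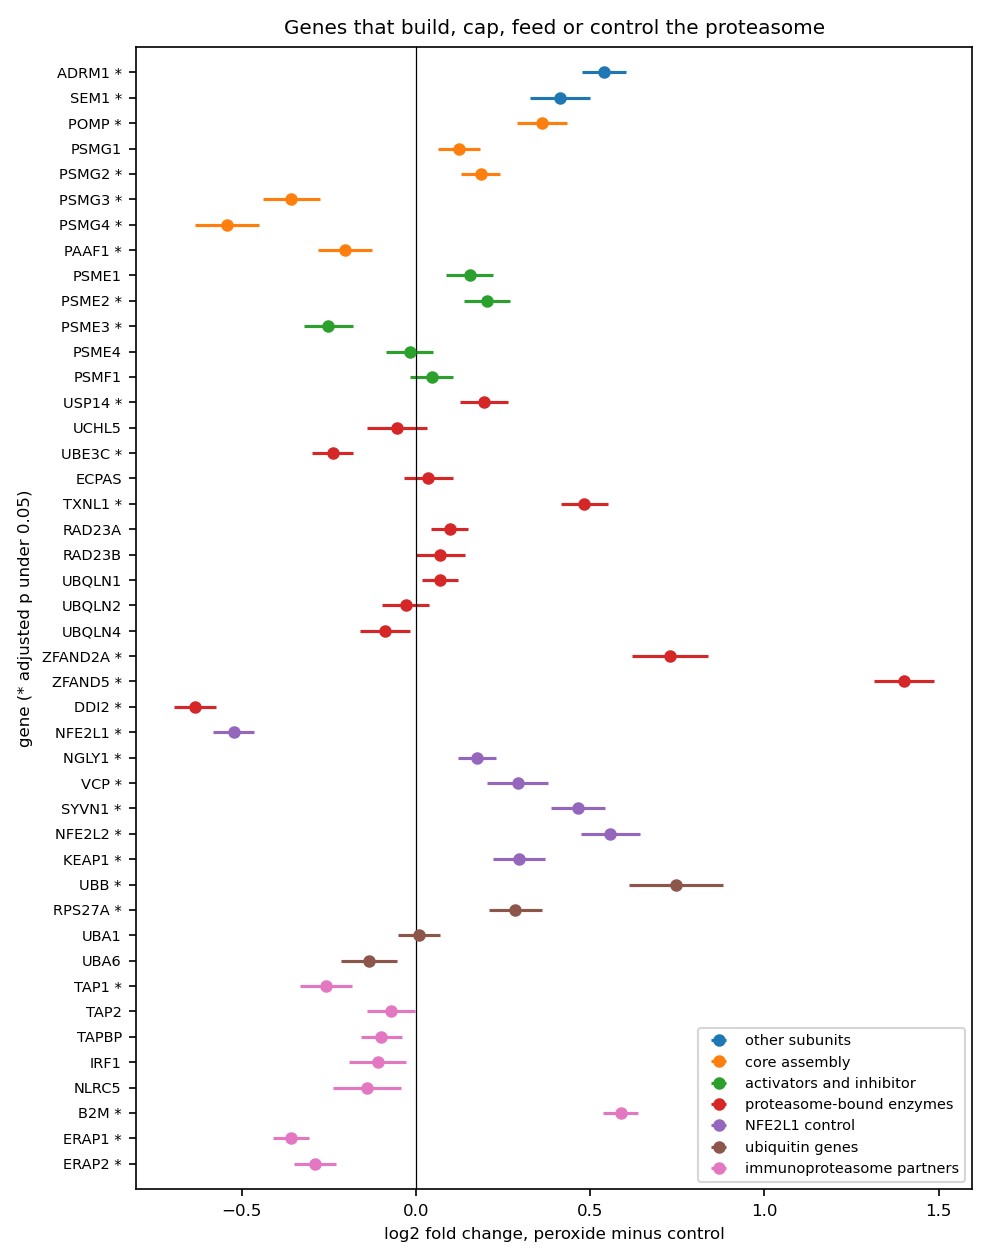
Log2 fold change (peroxide minus control) with its standard error of 44 genes that build, cap, feed or control the proteasome, coloured by list; asterisks mark an adjusted p under 0.05. ZFAND5 (1.40) lies farthest right, and DDI2 (-0.63), PSMG4 (-0.54) and NFE2L1 (-0.52) farthest left.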

How the data were processed

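RNA-seq libraries of Jurkat E6-1 cells, 8 untreated and 8 harvested 4 h after hydrogen peroxide in saline, were analysed from whole-number read counts per gene, deposited by the authors as 1 table per library with no normalization. STAR 2.7.1a, HTSeq 0.6.1 and hg19 are named per the submitters' processing notes. The counting mode, strand and annotation were not given in the sources used here. Of the gene identifiers 68.0% matched GENCODE 29 (GRCh38) to the version, so no gene coordinates are printed beyond the RefSeq promoter windows. Symbols were found for 60357 of 60662 identifiers. The 5 entries that name no gene, such as reads not aligned uniquely, held 43.5% to 57.6% of the counted reads and were left out. Members were taken by symbol. The members, the gene lists and their grouping were chosen with earlier results of these data known. A few genes of the lists are not reported here and are in no count of a list.

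Genes were filtered with edgeR's filterByExpr by group, which left 14092 genes with 99.6% of reads in genes. The filter passed 38 members, and PSMB11 was left out by it. Counts were scaled with TMM, and the quasi-likelihood test was used (edgeR 4.0.16, limma 3.58.1, DESeq2 1.42.0, R 4.3.3) with batch and group as terms, over all 16 libraries. Benjamini-Hochberg adjustment covered all genes tested, with calls made under an adjusted p of 0.05. The standard error was taken as the absolute log2 fold change over the root of F. Batch 2 minus batch 1 in controls and the interaction came from a fit with a mean for each group in each batch. Ratios of reads used 0.5 added to each count and exact permutation tests, two-sided. Scripts were tested on simulated data. Named members were PSMB5 to PSMB10, the 2 largest rises and falls among called members of each class, the 3 smallest interaction p-values, members not tested, and members named beside a count. Of the other genes, all of the other subunits, assembly, cap and NFE2L1 lists were named, and the 3 called genes with the smallest p in each other list. Motifs were searched on both strands of the RefSeq windows. Sequence shared with other genes was counted as 50-base stretches of 1 GENCODE 29 transcript per gene found in transcripts of other genes.

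The replicate numbers were checked as pairs. Same-numbered libraries deviated together from their group means (r = 0.189 to 0.602), but from the means of group and batch r was -0.22 to 0.32, so the numbers mark the shared batch. Pairs of libraries of a group differed by a chi-square per degree of freedom of 2.75 to 41.2, so all were kept. Alternatives were total counts, DESeq2 size factors, DESeq2, limma-voom, no filter, no batch term, a replicate block, each batch alone, each library left out in turn and, chosen after seeing the data, leaving out control 1 and peroxide 5, which had the most reads without a unique alignment, and, for the ratios, permuting labels within batches.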

Additional observations from a re-analysis of the deposited data

Results flagged for a closer look

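The change after peroxide differed between the batches, tested as an interaction in edgeR with Benjamini-Hochberg adjustment, by 0.71 for PSMD10 and 0.47 for PSMB9 (batch 2 minus batch 1, log2 scale). Among the other genes of the pathway it differed by -0.38 for TXNL1, -0.50 for NFE2L2 and 0.79 for UBB. TXNL1 rose by 0.67 in batch 1 and 0.30 in batch 2, NFE2L2 by 0.81 and 0.31, and UBB by 0.36 and 1.15. UBB also stood at -1.91 in untreated cells of batch 2 relative to batch 1, on the log2 scale. Whether its starting level bears on the difference was not tested.

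In 2 of 76 groups of 8 libraries checked, 1 library stood apart from the other 7. This is fewer than the 1 group in about 20 that chance gives. Each group of 8 joined both batches, whose levels differed for most members, so that rate may not hold here. PSMD4 was at 204 CPM in control 2, with the next library at 181 CPM. PSMD9 was at 19.1 CPM in control 2, with the next at 17.0 CPM.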

How the results depend on the processing

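The 20 rises among members were also called with DESeq2, limma-voom and DESeq2 size factors, 17 with total counts and 15 with no filter; PSMD5 was lower under each of these. Without a batch term 11 members were higher, and in batch 1 alone 13 were higher and 4 lower. With 1 library left out, 19 to 23 were higher. Alpha genes higher were 3 with total counts, 3 with no filter, 1 without a batch term and 2 in batch 1. Constitutive beta genes higher were 1 without a batch term and 2 in batch 1. ATPase genes higher were 3 with no filter and 3 in batch 1. Immunoproteasome genes lower were 2 in batch 1. Of the members that are base subunits but not ATPases 0 to 1 were higher with 1 library left out, PSMD1 without control 2. The interaction was called for 4 members with DESeq2 and for 1 to 6 with 1 library left out, the 6 without peroxide 2. The share of all genes with an interaction call was not counted in these fits, so the counts cannot be set against a background. Of the 44 other genes, 11 were higher and 6 lower without a batch term, 10 were higher and 9 lower in batch 1, and 16 were higher and 4 lower in batch 2. Of all genes tested, 18% were higher and 17.4% lower without a batch term. These shares were 20.4% and 17.2% in batch 1 and 19.4% and 19.1% in batch 2, so the counts in batch 1 were near the background. PSMB9/PSMB6 differed by -0.34 in batch 1 and by -0.23 with labels permuted within batches, which both passed the test, and PSMB10/PSMB7 by -0.13 in batch 2, which did not. The causes were not tested. With the replicate number as a block, 20 members were higher and 1 lower, and no member changed its call; PSME1, outside the family, gained one. Depth limits PSMC1, PSMA2, PSMD9 and PSMA8, whose levels rest on the fewest reads among tested members, and PSMB11, with 4 reads in all.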
